A study of Homo sapiens with 4 samples.

Results

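The genes described here encode proteins of synaptic vesicles and of the machinery that fuses vesicles with their target membranes. Members were chosen by symbol alone: the synaptotagmins, synapsins, synaptophysin and synaptogyrins, syntaxins and syntaxin-binding proteins, VAMPs, SV2 proteins, SNAP proteins, RAB3 GTPases, complexins, UNC13 and RIM proteins and neurexins. The rule found 82 gene identifiers, which carry 81 symbols, among 57820 genes in the table. VAMP7 has 2 identifiers, because it lies in the pseudoautosomal region of the X and Y chromosomes. SNAP91, a clathrin assembly protein, shares the name of the SNAP proteins but is not a SNARE.

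RNA-seq was carried out on SK-N-SH, a human neuroblastoma cell line, to find the genes whose expression changed with the lncRNA RP5-998N21.4. Vector control cells (2 libraries, genotype label wild type) received an empty lentivirus without insert. OE cells (2 libraries) received the same type of lentivirus with RP5-998N21.4 cloned into the PHAGE-fullEF1a-MCS-IZS Green vector, in which the EF1a promoter drives expression. All cells were grown in DMEM with fetal bovine serum. The transgene is thus expressed from a viral insert in a tumour line, and the sources used here do not say whether the replicates were separate transductions. Therefore, p-values measure the spread between these libraries, which may be technical.

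In neurons, a v-SNARE on the vesicle (VAMP2) zips together with the t-SNAREs, a syntaxin and SNAP25, on the plasma membrane, and this pulls the membranes into fusion. Munc13 (UNC13) and RIM proteins prepare the vesicle for release, complexins clamp and then assist the zippering SNAREs, and synaptotagmins sense the calcium that triggers release. Neuroblastoma cells derive from sympathoadrenal precursors and store catecholamines in dense-core vesicles, which use much of the same machinery.

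Total counts ranged from 23785164 to 28307591 per library. RP5-998N21.4 was counted 32 and 33 times in vector control cells and 2407 and 2808 times in OE cells, and rose by a log2 fold change of 6.11 (SE 0.108, edgeR adjusted p = 0.0109). Of the neuroblastoma markers, 9 of 10 adrenergic genes were detected (TH was listed at 0) and 10 of 10 mesenchymal genes. Markers of other cell types summed to between 1.07 and 3.19 CPM, the count scaled to a common library size, with ALB, APOA1, AQP4, CD3E, HBB and KRT5 at 0 in every library. Of all genes averaging 4 CPM or more, 11.7% differed more than 2-fold between replicates of a condition, against 4 of 56 members.

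The members held a steady share of the transcriptome, between 0.298% and 0.306% of all counts in the 4 libraries. Counts were found for 74 of the 81 symbols, and 69 had enough counts to be tested. RIMS3 and RIMS4, scaffolds of the presynaptic active zone, rose 2.52-fold and 2.56-fold in OE cells, and were the only 2 members with an adjusted p under 0.05 in edgeR's quasi-likelihood test. By that test, 0.594% of all 20528 genes tested were called, 0.283% as higher and 0.312% as lower. At the thresholds of the study (an adjusted p under 0.01 with a log2 fold change beyond 0.5 in size), edgeR called 0 members and 0.0% of all genes. DESeq2 called 13 members at the same thresholds (18.8%), 11 higher and 2 lower, against 8.77% of all genes, 4.35% higher and 4.42% lower. The higher ones included RIMS3, RIMS4, UNC13A, UNC13D, SNAP91, NRXN2, SYT5, SYT7, SYT17 and SYP, and the 2 lower were RAB3B and VAMP4.

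At an unadjusted p under 0.05 in edgeR, 14 members (20.3%) were higher in OE cells, against 10.1% of all genes, and 8 members (11.6%) were lower, against 10.7%. The 8 lower members became 4 without vector control replicate 2, 4 without OE replicate 1 and 5 without OE replicate 2, where 7.19%, 8.5% and 9.55% of all genes were lower at this p. Each OE library exceeded each control for 25 members (36.2%), against 27.8% of all genes, and lay below each control for 18 (26.1%), against 27.6%. The remaining 26 tested members overlapped. The median log2 fold change was 0.07 over the 69 members and 0.01 over all genes tested, and single members ranged from -1.09 to 1.99. Summed over all members, expression was 3040 and 3082 CPM in vector control and 2997 and 2990 CPM in OE cells. In bulk RNA, fewer cells of a type and less RNA per cell cannot be told apart. With 2 libraries against 2, an exact permutation test of a single value cannot go below p = 0.333.

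**Figure D1:**
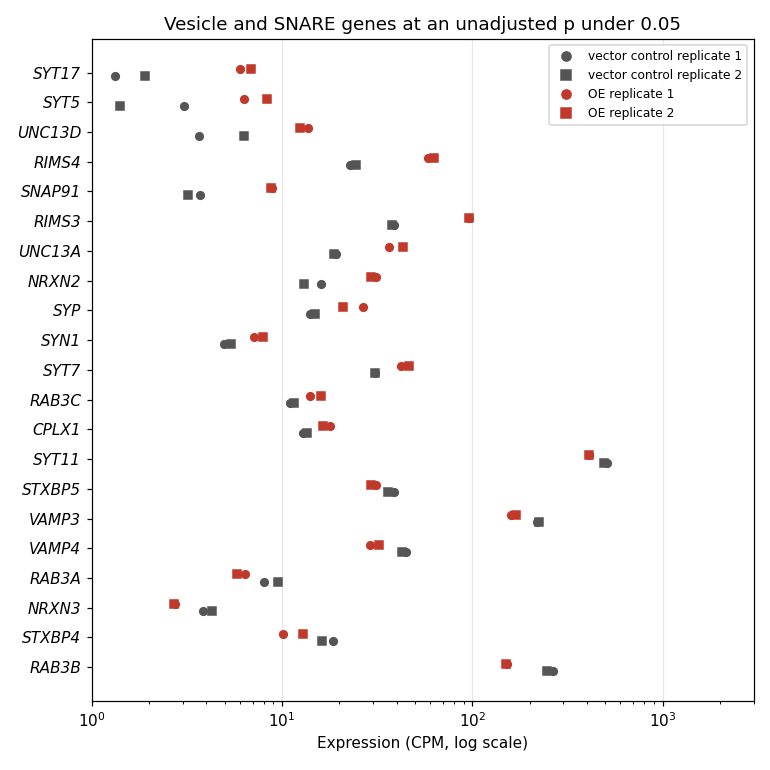
Expression in CPM (log scale) of 21 members with an unadjusted p under 0.05 in edgeR, with 1 row per gene ordered by log2 fold change, grey symbols for vector control, red for OE, circles for replicate 1 and squares for replicate 2. The 13 genes above SYT11 have both red symbols to the right of both grey ones, and the 8 genes from SYT11 down have them to the left.

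The UNC13 and RIM genes, which encode the proteins that prime docked vesicles and anchor them at the active zone, were the group of several members with the highest median change. Each of the 7 tested genes had a positive log2 fold change (median 1.07), 4 were higher at an unadjusted p under 0.05, against 10.1% of all tested genes, and in 6 the OE libraries lay above the controls, against 27.8%. Their summed expression was 114 CPM in each vector control library, and 238 and 246 CPM in the OE libraries. RIMS3, a short RIM protein without the RAB3-binding part of RIMS1, had 38.7 and 37.9 CPM in vector control and 96.5 CPM in each OE library. The OE libraries were well above the controls, and both pairs of replicates lay close together. The log2 fold change of RIMS3 was 1.33 (SE 0.0825, edgeR adjusted p = 0.0382). RIMS4, a short RIM protein of the same kind, had 22.7 and 24.5 CPM in vector control and 58.1 and 62.6 CPM in OE cells, again without overlap. Its log2 fold change was 1.36 (SE 0.103, edgeR adjusted p = 0.0487). Both calls were lost when any 1 of the 4 libraries was left out, where the edgeR adjusted p ranged from 0.0974 to 0.119 for RIMS3 and from 0.123 to 0.155 for RIMS4 while the log2 fold changes stayed between 1.30 and 1.41.

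UNC13A (Munc13-1), the main priming factor of neuronal vesicles, had 19.1 and 18.8 CPM in vector control and 36.5 and 43.4 CPM in OE cells. The lower OE library was still well above both controls. The log2 fold change was 1.07 (SE 0.131, edgeR adjusted p = 0.075). UNC13D (Munc13-4), known for the release of cytotoxic granules in blood cells, had 3.65 and 6.29 CPM in vector control and 13.7 and 12.4 CPM in OE cells, a log2 fold change of 1.39 (SE 0.318, edgeR adjusted p = 0.144). The controls of UNC13D were unequal, and its log2 fold change was 1.05 without vector control replicate 1 and 1.83 without the other control. The long RIM genes were not called. RIMS1 had 1.46 and 1.19 CPM against 1.19 and 2.24 CPM, with OE replicate 2 alone above the controls. RIMS2 had 13.9 and 12.2 CPM against 16.2 and 14.1 CPM. UNC13B was at 13.4 ± 0.78 CPM in vector control and 15.5 ± 0.665 CPM in OE cells (SD, n = 2), with no overlap, at a log2 fold change of 0.21 (SE 0.124). UNC13C was at 0 counts in all libraries.

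In GRCh37, the build of the reads' alignment, RIMS3 lies at chr1:41086352-41131354 and UNC13A at chr19:17712145-17799174, both on the minus strand, and neither shares exon bases with another annotated gene. RIMS4 lies on the minus strand at chr20:43380449-43439187, and 9.35% of its exon bases are antisense to KCNK15. Whether strand was used in counting is not given in the sources used here, so that reads from those bases could come from either gene.

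The promoters of RIMS3, UNC13A and SYN1, higher in OE cells at an unadjusted p under 0.05, and of RAB3B, lower at that p, are shown. They were picked from 7 higher and 7 lower members with a promoter, and the other such members are not shown. Promoters came from a set drawn from RefSeq (GRCh38.p14), and this set, not RefSeq as a whole, held 62 of the 81 symbols. They run from 250 bases before to 50 bases after the first listed start, 5′ to 3′ on the gene's strand. Both strands were searched for a cAMP response element (TGACGTCA), an E-box (CACGTG), an interferon-stimulated response element, the left part of the RE1 element bound by the neuronal repressor REST (TTCAGCACC) and a GC box (GGGCGG). Capitals mark the matches in either orientation, and none of the motif spellings contains another.
RIMS3, chr1:40665633-40665932, minus strand: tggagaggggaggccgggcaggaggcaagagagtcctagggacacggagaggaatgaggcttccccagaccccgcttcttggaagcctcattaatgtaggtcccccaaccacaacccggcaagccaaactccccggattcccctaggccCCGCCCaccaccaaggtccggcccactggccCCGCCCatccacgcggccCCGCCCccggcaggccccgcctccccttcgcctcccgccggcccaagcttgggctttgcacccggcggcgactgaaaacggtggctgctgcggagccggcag
UNC13A, chr19:17688305-17688604, minus strand: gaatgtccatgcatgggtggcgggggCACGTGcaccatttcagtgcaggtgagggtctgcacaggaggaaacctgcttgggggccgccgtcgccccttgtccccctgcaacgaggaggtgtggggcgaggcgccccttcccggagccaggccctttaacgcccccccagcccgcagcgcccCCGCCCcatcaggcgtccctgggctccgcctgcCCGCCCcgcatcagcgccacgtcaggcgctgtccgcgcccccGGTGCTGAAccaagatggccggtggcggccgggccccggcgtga
SYN1, chrX:47619808-47620107, minus strand: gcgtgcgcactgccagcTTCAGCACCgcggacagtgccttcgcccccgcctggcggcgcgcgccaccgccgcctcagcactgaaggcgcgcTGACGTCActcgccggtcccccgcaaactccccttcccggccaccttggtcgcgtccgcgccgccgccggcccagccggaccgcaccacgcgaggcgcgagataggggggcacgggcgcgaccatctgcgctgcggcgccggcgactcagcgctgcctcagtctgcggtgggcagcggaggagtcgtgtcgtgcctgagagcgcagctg
RAB3B, chr1:51990651-51990950, minus strand: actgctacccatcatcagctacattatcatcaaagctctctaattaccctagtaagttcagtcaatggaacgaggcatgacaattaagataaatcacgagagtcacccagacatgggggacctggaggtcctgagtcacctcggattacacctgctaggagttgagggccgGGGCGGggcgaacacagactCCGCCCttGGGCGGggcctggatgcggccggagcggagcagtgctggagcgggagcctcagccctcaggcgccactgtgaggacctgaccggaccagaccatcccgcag

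UNC13A and SYN1 were the only members with the RE1 part (2 of 62, 3.23%), which 0.403% of all 27305 promoters held. The promoters shown thus include every member with this part, and are not a sample of the 7 higher members. The cAMP response element was present in SYN1, STX12 and STXBP3 (4.84%, against 1.98% of all promoters), and the E-box in 8 members including UNC13A (12.9%, against 7.43%). The interferon-stimulated response element occurred in CPLX4 alone, 1.61% of members against 3.65% of all promoters. RIMS3 and RAB3B, of opposite sign in the comparison, each carried 3 GC boxes and none of the other motifs, and the GC box was present in 74.2% of member promoters against 44.6% of all. The median GC content was 68.2% for members and 58.3% for all promoters. These matches describe the letters in the window, not factor binding. The promoter set used here held no entry for RIMS4, NRXN2, SYT7, SYT17, UNC13D, CPLX1 and STXBP4, among other members.

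**Figure D2:**
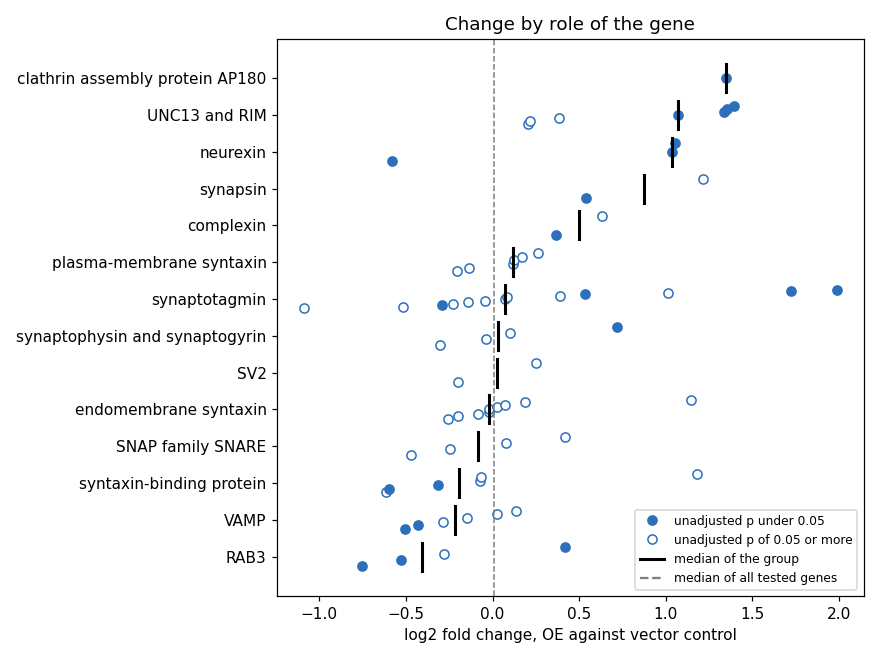
Log2 fold change of OE against vector control for the 69 tested members, by role of the protein, with filled points for an unadjusted p under 0.05 in edgeR, open points for all others, black bars for group medians and a dashed line for the median of all tested genes (0.01). UNC13 and RIM genes all lie right of the line with a median of 1.07, and 3 of 4 RAB3 genes lie left of it.

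None of the 6 tested plasma-membrane syntaxins, the 9 endomembrane syntaxins or the 4 SNAP-family SNAREs had an unadjusted p under 0.05 in edgeR, against 20.8% of all tested genes. STX1A had 25.7 and 25.5 CPM in vector control and 29.5 and 32.0 CPM in OE cells. Both OE values were above the controls, at a log2 fold change of 0.26 (SE 0.102, edgeR adjusted p = 0.27). STX8 had 23 and 11 counts in vector control and 50 and 36 counts in OE cells, without overlap (log2 fold change 1.14, SE 0.52, edgeR adjusted p = 0.32). Its log2 fold change ranged from 0.70 to 1.77 as single libraries were left out, and its leading transcript was not the same in every library. STX2 had 65.8 and 61.8 CPM against 52.9 and 57.9 CPM, also without overlap (log2 fold change -0.20, SE 0.101, edgeR adjusted p = 0.352). SNAP25 overlapped between groups, with 6.99 and 9.73 CPM in vector control and 13.6 and 8.77 CPM in OE cells. SNAP47, a SNAP-family protein found widely outside synapses, had 124 and 162 CPM in vector control and 96.7 and 110 CPM in OE cells, without overlap (log2 fold change -0.47, SE 0.17, edgeR adjusted p = 0.248), and without vector control replicate 2 its log2 fold change was -0.27. Of the exon bases of SNAP47, 22.8% are antisense to JMJD4.

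SNAP25 is made in forms that differ by alternative copies of an exon, and these are shown because the form counted differed in 1 library. All SNAP25 counts of both vector control libraries (163 and 229) and of OE replicate 1 (342) were on the transcript with the downstream copy (ENST00000254976.2). In OE replicate 2, 58 of 254 counts (22.8%) were on the transcript with the upstream copy (ENST00000304886.2). Each copy is 118 bases long, and they are identical at 87 bases and differ at 31, marked by capitals (GRCh37, plus strand).
Downstream copy, chr20:10273809-10273926: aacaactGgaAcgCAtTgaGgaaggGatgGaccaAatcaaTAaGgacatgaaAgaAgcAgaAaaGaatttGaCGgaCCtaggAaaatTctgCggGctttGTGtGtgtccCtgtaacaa
Upstream copy, chr20:10273530-10273647: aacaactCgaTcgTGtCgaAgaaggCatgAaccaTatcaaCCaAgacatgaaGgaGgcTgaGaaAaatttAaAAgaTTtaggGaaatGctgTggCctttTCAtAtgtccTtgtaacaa
The transcripts share 1932 of their 2053 and 2050 bases, including 500 of 618 coding bases. The upstream copy was thus listed in 1 of the 4 libraries, with no second library to compare.

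Among the VAMPs, the v-SNAREs, VAMP2 of synaptic vesicles had 58.5 and 53.7 CPM in vector control and 55.6 and 58.7 CPM in OE cells. The groups overlapped, and the log2 fold change was 0.03 (SE 0.0988, edgeR adjusted p = 0.906). Of the 6 tested VAMPs, VAMP3 and VAMP4 were lower at an unadjusted p under 0.05, against 10.7% of all tested genes. VAMP3 (cellubrevin), of recycling endosomes, had 219 and 224 CPM in vector control and 160 and 169 CPM in OE cells, with a log2 fold change of -0.43 (SE 0.0676, edgeR adjusted p = 0.0945). VAMP4, of the trans-Golgi network, had 44.6 and 42.8 CPM in vector control and 29.1 and 32.5 CPM in OE cells, with a log2 fold change of -0.51 (SE 0.106, edgeR adjusted p = 0.129). For both genes the OE libraries lay below the controls. VAMP8 (endobrevin), of late endosomes, overlapped between groups at 6 to 20 counts per library (log2 fold change 0.14, SE 0.672, edgeR adjusted p = 0.933). VAMP7 was listed at 0, as were all 47 pseudoautosomal identifiers of each sex chromosome, so that its zeros say nothing about its expression.

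Of the 6 syntaxin-binding proteins, 2 were lower and none was higher at an unadjusted p under 0.05 in edgeR, against 10.7% and 10.1% of all tested genes. STXBP5 (tomosyn), which holds SNAREs in an inactive complex, had 38.7 and 36.1 CPM against 31.0 and 29.2 CPM, a log2 fold change of -0.32 (SE 0.101, edgeR adjusted p = 0.214). STXBP4, described in insulin-regulated traffic, had 18.6 and 16.2 CPM against 10.1 and 12.9 CPM, a log2 fold change of -0.60 (SE 0.185, edgeR adjusted p = 0.208), and 26.6% of its exon bases overlap another annotated gene on the same strand. Both were lower in each OE library and had an unadjusted p under 0.05. Of the complexins, CPLX1 had 13.0 and 13.6 CPM in vector control and 17.8 and 16.4 CPM in OE cells, a log2 fold change of 0.37 (SE 0.121, edgeR adjusted p = 0.222). The groups of CPLX1 did not overlap. CPLX2 ranged from 16 to 822 counts within the same groups and is taken up with its transcripts, and CPLX3 and CPLX4 were at 0.

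Of the 13 tested synaptotagmins, 3 were higher and 1 was lower at an unadjusted p under 0.05, against 10.1% and 10.7% of all tested genes. SYT17, an atypical member of the family, had the largest change of all members, from 31 and 45 counts in vector control to 151 and 199 counts in OE cells (log2 fold change 1.99, SE 0.26, edgeR adjusted p = 0.078). SYT5 had 71 and 33 counts in vector control and 159 and 242 counts in OE cells (log2 fold change 1.72, SE 0.452, edgeR adjusted p = 0.169). Both genes were higher in each OE library at low expression, and the controls of SYT5 differed 2.17-fold from each other, so that the log2 fold change of SYT5 was 2.38 or 1.26 when the first or the second of them was left out. SYT7, a high-affinity calcium sensor for slow release, had 30.6 and 30.6 CPM in vector control and 42.2 and 46.5 CPM in OE cells, a log2 fold change of 0.53 (SE 0.1, edgeR adjusted p = 0.114). SYT11, which does not bind calcium, was the synaptotagmin with the most counts, at 509 and 494 CPM in vector control and 409 and 411 CPM in OE cells, a log2 fold change of -0.29 (SE 0.0487, edgeR adjusted p = 0.0999). The groups of SYT7 and of SYT11 were far apart relative to their replicates, in opposite directions. SYT12 had the lowest log2 fold change of all members, -1.09 (SE 0.388, edgeR adjusted p = 0.245), with 142 and 272 counts against 92 and 134. Its controls were also unequal, and without vector control replicate 2 the value was -0.56. SYT1, the calcium sensor of fast release, had 95.2 and 91.9 CPM in vector control and 255 and 123 CPM in OE cells (log2 fold change 1.01, SE 0.392, edgeR adjusted p = 0.268). OE replicate 1 was more than 2-fold above OE replicate 2, and without it the log2 fold change of SYT1 was 0.39.

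RAB3 GTPases mark vesicles for docking through RIM proteins. RAB3B was the member of this family with the most counts and had the smallest p among the lower members. It had 264 and 246 CPM in vector control and 152 and 151 CPM in OE cells, a log2 fold change of -0.75 (SE 0.0705, edgeR adjusted p = 0.0616). OE cells were below the controls by several times the spread of the replicates. Leaving out any 1 library kept its log2 fold change between -0.81 and -0.71. RAB3A, the main form in neurons, had 8.06 and 9.52 CPM in vector control and 6.37 and 5.80 CPM in OE cells, a log2 fold change of -0.53 (SE 0.167, edgeR adjusted p = 0.21), and 9.24% of its exon bases are antisense to MPV17L2. RAB3C went the other way, with 10.9 and 11.5 CPM against 13.9 and 16.0 CPM, a log2 fold change of 0.42 (SE 0.139, edgeR adjusted p = 0.227), and RAB3D had a log2 fold change of -0.28 (edgeR adjusted p = 0.287). Of the 4 RAB3 genes, 3 had OE libraries below the controls and 1 above them, where 55.4% of all tested genes did not overlap in either direction. Summed over the family, expression was 322 and 311 CPM in vector control and 205 and 208 CPM in OE cells, most of it RAB3B.

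Of the 8 tested genes for proteins of the vesicle itself (synapsins, synaptophysin, synaptogyrins and SV2 proteins), SYN1 and SYP were higher at an unadjusted p under 0.05, against 10.1% of all tested genes, and none was lower. SYP (synaptophysin) had 14.0 and 14.8 CPM in vector control and 26.6 and 20.8 CPM in OE cells, a log2 fold change of 0.72 (SE 0.17, edgeR adjusted p = 0.149). SYN1 (synapsin 1), which tethers vesicles to actin, had 115 and 127 counts in vector control and 178 and 229 counts in OE cells, a log2 fold change of 0.54 (SE 0.158, edgeR adjusted p = 0.195). Both genes were higher in each OE library, and 24.9% of the exon bases of SYN1 overlap another annotated gene on the same strand. SYN2 had 55 and 44 counts against 171 and 88 (log2 fold change 1.21, SE 0.481, edgeR adjusted p = 0.276), and its log2 fold change was 0.52 without OE replicate 1, the library in which most SYN2 counts lay on another transcript. The SYN3 counts were too few to be tested. SV2A, a transporter-like vesicle glycoprotein, had 214 and 205 CPM against 173 and 191 CPM, a log2 fold change of -0.20 (SE 0.0815, edgeR adjusted p = 0.283). SYNGR2, the ubiquitous relative of synaptophysin, overlapped, with 144 and 167 CPM in vector control and 146 and 156 CPM in OE cells.

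Neurexins are presynaptic adhesion proteins that bind neuroligins across the synaptic cleft. NRXN2 had 16.1 and 13.0 CPM in vector control and 31.0 and 29.4 CPM in OE cells, a log2 fold change of 1.05 (SE 0.152, edgeR adjusted p = 0.0872). It was higher in each OE library, 2.08-fold. NRXN3 had 90 and 101 counts against 69 and 78, a log2 fold change of -0.58 (SE 0.176, edgeR adjusted p = 0.202), but this value turned to 0.35 when only the transcript with the most counts was used. SNAP91 (AP180), which builds clathrin coats for vesicle retrieval, had 86 and 75 counts in vector control and 221 and 252 counts in OE cells, a log2 fold change of 1.35 (SE 0.162, edgeR adjusted p = 0.0738). The OE libraries of SNAP91 were close to each other and far above the controls.

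To compare levels between genes, counts were divided by transcript length and scaled to TPM, a per-length level in which every library has the same total. A mean of at least 10 TPM was reached by 35 members, 30 lay between 1 and 10 TPM, and 16 were under 1 TPM, of which 7 had no count. The highest levels belonged to VAMP3, with 194 ± 1.03 TPM in vector control and 151 ± 8.54 TPM in OE cells (SD, n = 2), and SYT11, with 184 ± 7.23 and 157 ± 3.29 TPM. STX16, a syntaxin of the trans-Golgi network, had 101 ± 2.00 and 111 ± 4.01 TPM, and SNAP47 had 117 ± 18.2 and 87.7 ± 9.28 TPM, so that SNAP47 had the higher mean in vector control and STX16 in OE cells. In vector control replicate 1 and both OE libraries, most STX16 counts lay on a transcript with no annotated length, for which the longest annotated transcript of the gene stood in. Of the exon bases of STX16, 28.5% overlap another annotated gene on the same strand. In OE cells the values of VAMP3 and SYT11 overlapped. The SNAREs of neuronal fusion stood lower and were unequal, with VAMP2 at 50.2 ± 3.99 and 53.5 ± 2.95 TPM, STX1A at 23.5 ± 0.748 and 30.6 ± 3.84 TPM, and SNAP25 at 7.74 ± 1.65 and 10.8 ± 3.12 TPM. RIMS3, at 10.0 ± 0.348 TPM in vector control, reached 26.4 ± 0.476 TPM in OE cells, and RIMS4 went from 8.29 ± 0.29 to 22.2 ± 1.54 TPM. The OE libraries of both genes lay above the controls by more than the spread of the replicates.

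**Figure D3:**
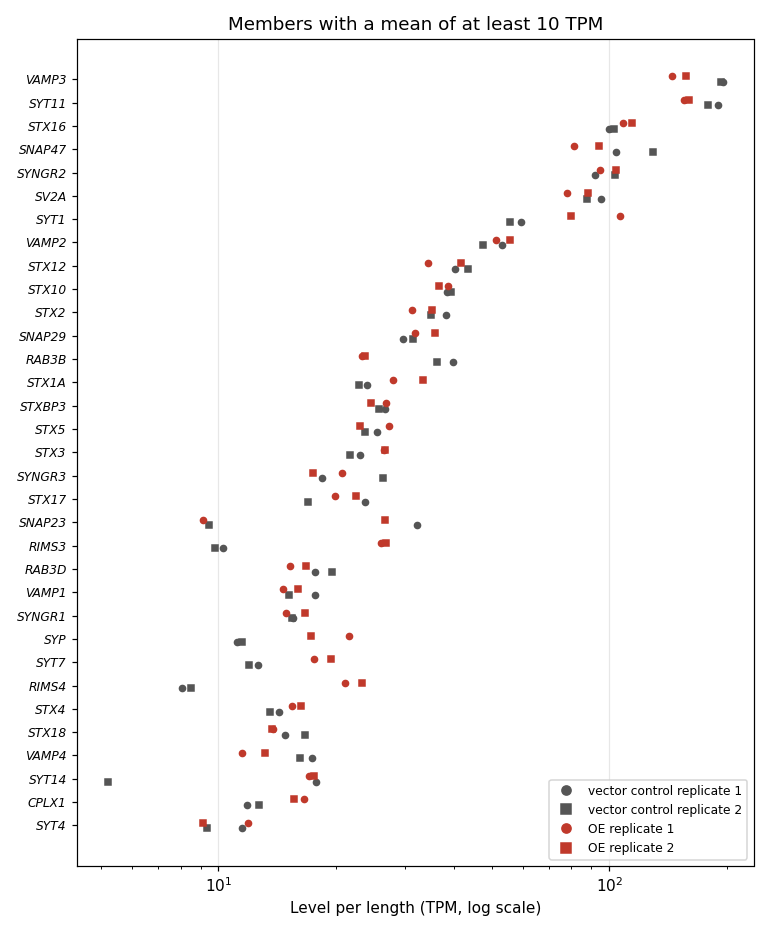
Level per length in TPM (log scale) of 33 members with a mean of at least 10 TPM, ordered by mean, with grey symbols for vector control, red for OE, circles for replicate 1 and squares for replicate 2. VAMP3 and SYT11 lie highest, RIMS3 and RIMS4 have both red symbols far right of both grey ones, and SNAP23 splits by library rather than by group.

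For several members the counts moved as a block between annotated transcripts of the gene from library to library. The transcript with the most counts was not the same in every library for 12 of the 69 tested members, against 18.2% of all tested genes. All SYT1 counts of both vector control libraries and of OE replicate 2 (2220, 2162 and 3552) were on ENST00000393240.3, and all 6407 counts of OE replicate 1 were on ENST00000261205.4. These transcripts contain the same coding sequence of 1266 bases and differ outside it. The library that differed in transcript was thus the library with the high SYT1 value, and with the single most counted transcript the log2 fold change of SYT1 was -0.61.

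CPLX2 had 453 counts on ENST00000359546.4 in vector control replicate 2 and 790 in OE replicate 2, and 0 in the other libraries. There, 16 counts (vector control replicate 1) and 68 counts (OE replicate 1) lay on ENST00000514150.1, which shares 446 bases with the first. CPLX2 therefore split by library and not by condition, with a log2 fold change of 0.63 (SE 1.83) that ranged between -1.89 and 4.49 as single libraries were left out. SNAP23, the SNAP25 relative of non-neuronal cells, had 306 and 316 counts on ENST00000563333.1 in vector control replicate 1 and OE replicate 2, and 106 and 113 counts on ENST00000568514.1 in the other libraries. Neither SNAP23 transcript has an annotated coding sequence. STX16, SYT14 and NRXN2 switched transcripts in vector control replicate 2 while their summed expression in CPM differed from the other control by 1.06-fold, 1.27-fold and 1.24-fold. Among members with a mean of at least 4 CPM, replicates differed more than 2-fold for 1 of the 50 with the same leading transcript in all libraries and for 3 of the 6 with a different one, against 6.28% and 35.3% of all such genes. What part the assignment of reads to transcripts had in these values was not tested. RIMS3, RIMS4, UNC13A, SNAP91 and RAB3B kept the same leading transcript in all 4 libraries.

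**Figure D4:**
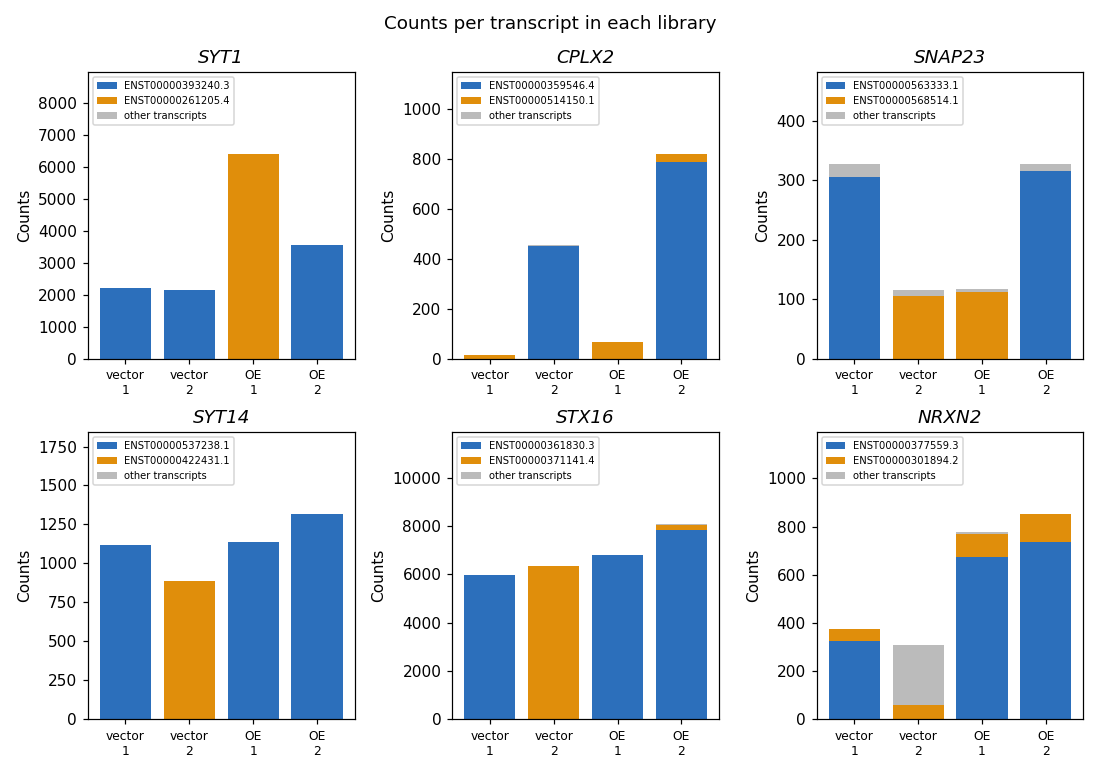
Counts per transcript (stacked bars from 0) of 6 members in the 4 libraries, with the most counted transcript of each gene in blue, the next in orange and all others in grey. SYT1 in OE replicate 1 is wholly orange at 6407 counts, CPLX2 is tall only in the libraries numbered 2, and STX16 keeps its height while changing colour in vector control replicate 2.

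Besides VAMP7, CPLX3, CPLX4, SYT6, SYT8, SYT10 and UNC13C had 0 counts in all libraries, which for these 6 genes allows up to 3 counts per library and covers counting error only. Of the exon bases of CPLX3, 99.7% overlap another annotated gene on the same strand. What part this overlap had in the zeros of CPLX3 was not tested. STX19, SV2B, SYN3, SYNGR4 and SYT16 had counts but too few to be tested. SYT16 had 0 counts in both vector control libraries and 5 in each OE library, and SYNGR4 had 2 counts in a single library. These genes did not pass the filter, so whether they differed was not assessed in the main comparison.

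In a list of 97 other genes of vesicle docking, fusion, filling and recycling, 84 were tested, and 1 had an edgeR adjusted p under 0.05, against 0.594% of all tested genes. At an unadjusted p under 0.05, 10 of the 84 were higher and 12 lower, against 10.1% and 10.7% of all tested genes, so that these counts lay near the background. RAB3GAP2, a subunit of the complex that switches RAB3 off, fell from 139 and 138 CPM in vector control to 43.1 and 45.1 CPM in OE cells (log2 fold change -1.65, SE 0.0803, edgeR adjusted p = 0.0299). RAB3GAP1 of the same complex overlapped between groups, with 63.8 and 25.3 CPM against 28.6 and 72.0 CPM (log2 fold change 0.18, SE 0.682). The replicates of RAB3GAP2 nearly coincided, although its call was lost when any 1 library was left out (edgeR adjusted p between 0.0714 and 0.0964). RAB27B, a GTPase of secretory granules, had 75.1 and 64.9 CPM against 35.6 and 36.1 CPM (log2 fold change -0.96, SE 0.115, edgeR adjusted p = 0.0721). RAB3GAP2, RAB27B and RAB3B were thus each lower in both OE libraries.

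RIMBP2, BSN, PCLO and RPH3A of this list were higher at an unadjusted p under 0.05. RIMBP2, which links RIM proteins to calcium channels, had 16.6 and 15.2 CPM in vector control and 31.8 and 36.0 CPM in OE cells (log2 fold change 1.09, SE 0.126, edgeR adjusted p = 0.0707). BSN (bassoon) and PCLO (piccolo), the giant scaffolds of the active zone, each had a log2 fold change of 0.78 (edgeR adjusted p = 0.0983 and 0.114). RPH3A (rabphilin), an effector of RAB3, had a log2 fold change of 0.87 (edgeR adjusted p = 0.101), and its leading transcript was not the same in every library. In these genes, as in RIMS3, RIMS4 and UNC13A, both OE libraries exceeded both controls. Other active-zone scaffolds of the list, the liprins PPFIA1, PPFIA2, PPFIA3 and PPFIA4 and the ELKS proteins ERC1 and ERC2, did not pass that threshold. The log2 fold changes were -0.08 for PPFIA1 and -0.33 for PPFIA4, both with the OE libraries below the controls, 0.11 for PPFIA3 and 0.73 for ERC1, both with overlapping groups, and 1.70 for PPFIA2 and 0.97 for ERC2, both with the OE libraries above the controls. Without vector control replicate 1 or 2, respectively, the values were 2.16 or 0.01 for ERC1, 2.85 or 1.06 for PPFIA2 and 0.41 or 1.90 for ERC2, and PPFIA2 had 14 and 4 counts against 32 and 36. Of the 34 tested exocytosis and active-zone genes of the list, 6 were higher and 2 lower at that threshold, beside the same 10.1% and 10.7% of all tested genes.

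All 9 tested genes grouped here around the neurexins and neuroligins had a negative log2 fold change (median -0.55). The values of CASK, DLG4 and NLGN2 turned positive, up to 0.16, 0.02 and 0.04, when 1 library was left out. The OE libraries lay below the controls for 5 of the 9 genes, against 27.6% of all tested genes. At an unadjusted p under 0.05, 3 were lower (NLGN1, NLGN3 and CBLN1), against 10.7%. NLGN3, a neuroligin, had 13.4 and 14.5 CPM in vector control and 7.84 and 8.94 CPM in OE cells (log2 fold change -0.73, SE 0.144, edgeR adjusted p = 0.119). The leading transcript of NLGN3 was not the same in every library. Of 20 tested endocytosis genes, 5 were lower and 2 higher at that threshold, against 10.7% and 10.1%. CLTC, the clathrin heavy chain, had 538 and 535 CPM against 378 and 423 CPM (log2 fold change -0.42, SE 0.0743, edgeR adjusted p = 0.106), and STON1 (stonin 1) had a log2 fold change of -0.69 (edgeR adjusted p = 0.103). Both were lower in each OE library. The 2 higher genes were PICALM, the widely expressed relative of SNAP91, with a log2 fold change of 0.27 (edgeR adjusted p = 0.144), and STON2 (stonin 2), with 19 and 32 counts against 75 and 62 (log2 fold change 1.23, edgeR adjusted p = 0.207). Of 17 tested genes of other SNAREs and SNARE disassembly, 2 were higher and 1 lower at that threshold, against 10.1% and 10.7%. YKT6, 1 of the higher genes, had a log2 fold change of 0.39 (SE 0.08, edgeR adjusted p = 0.127). The lower gene was SEC22B (log2 fold change -0.32, SE 0.0888, edgeR adjusted p = 0.182).

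Markers of the adrenergic state of neuroblastoma, a neuron-like state, were higher in the same libraries as the UNC13 and RIM genes. All 9 tested markers had a positive log2 fold change, the OE libraries lay above the controls for 8, against 27.8% of all tested genes, and 6 had an unadjusted p under 0.05, against 10.1% higher. Their summed expression was 626 and 705 CPM in vector control and 1024 and 968 CPM in OE cells. Of 10 mesenchymal markers, 5 were lower and 1 was higher at an unadjusted p under 0.05, against 10.7% and 10.1% of all tested genes. Their sum was 3549 and 3316 CPM in vector control and 3849 and 2884 CPM in OE cells. The overlap of these sums came from VIM (vimentin) in OE replicate 1, and without VIM, left out after its values were seen, the sums were 3201 and 2967 CPM in vector control and 2597 and 2509 CPM in OE cells. What part these states had in the differences of the vesicle genes was not tested.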

How the data were processed

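RNA-seq of 2 vector control and 2 OE libraries was analysed, with groups taken from the labels. The titles of the controls read WT, and their treatment label, which names the empty vector, was followed. The file deposited by the authors holds raw counts for each transcript as whole numbers. The submitters' processing notes name hg19, Bowtie2 (2.0.4), Picard (2.21.6), StringTie (2.1.6) and DESeq2, and the counting annotation and use of strand are not given in the sources used here.

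Counts were summed per gene identifier. Genes passing filterByExpr (20528) were scaled by TMM and tested with edgeR (4.0.16, quasi-likelihood, legacy mode) in R (4.3.3), with Benjamini-Hochberg adjustment over all tested genes. The 2 call rules were an adjusted p under 0.01 with a log2 fold change beyond 0.5 in size, as in the study, and an adjusted p under 0.05. CPM used TMM library sizes. TPM used transcript lengths of the GRCh37 annotation. Transcripts with no length took the longest annotated transcript of their gene, and genes with no annotated length stayed out of TPM. Transcripts with a length held 93.2% to 93.7% of all counts per library, and 86.9% to 96.1% of member counts. Among members, 11 transcripts with counts had no length, which affects most counts of 6 members (UNC13A, SNAP91 and STX16 among them). Alternatives were RLE and upper-quartile scaling, DESeq2 (1.42.0), limma-voom (3.58.1), other filters, a replicate block, the most counted transcript alone and leaving out each library. The edgeR script was tested on simulated data. Figures were drawn with matplotlib (3.10.9) in Python (3.11.15).

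Named members were the core exocytosis genes, the 20 with the smallest p, the highest per length in each role, those called, those at 0, the 10 largest changes and up to 8 with differing leading transcripts. For the other vesicle genes, the 10 with the smallest p were named. RIMS2, RAB3C, RAB3D, UNC13B, NLGN1, CBLN1, VAMP8, the PPFIA and ERC genes, CASK, DLG4, NLGN2, PICALM, STON2, RAB3GAP1, SEC22B, the untested members and the genes in the closing observations were named after their values were seen. The members, roles and lists were chosen with earlier results of these data known. The deviations of same-numbered libraries from their group means did not correlate (r = -0.0216 across genes), so the replicate numbers were not taken to pair the libraries. No column of values was left out of use (0 unused columns). Some members and markers enter the counts but are not reported here by name.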

Additional observations from a re-analysis of the deposited data

How the results depend on the processing

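Of the log2 fold changes of 46 named genes under 14 alternatives (644 values), 562 kept their direction and side of the adjusted threshold, 51 passed it in addition, 19 no longer passed it and 12 changed sign. With DESeq2, the members at the thresholds of the study numbered 13 with either filter (8.77% and 7.23% of all genes), those at an adjusted p under 0.05 numbered 21 on the same genes and 17 on genes with at least 10 counts (19.8% and 16.2% of all genes with an adjusted p), those lower at an unadjusted p numbered 13 with either filter (14.9% and 12.6% of all genes), and the other vesicle genes at an adjusted p under 0.05 numbered 22 and 21. Without a filter beyond 1 count, 1 member had an adjusted p under 0.05 (0.328% of all genes). With the replicate number as a block, 0 members and 0 other vesicle genes did (edgeR adjusted p = 0.296 for RIMS3 and for RIMS4), as did 0.0% of all genes, while 13 members were higher and 6 lower at an unadjusted p under 0.05, against 7.22% and 7.69% of all genes. With the most counted transcript alone, 0 members and 0 other vesicle genes did (0.0446% of all genes), and the values of NRXN3 and SYT1 were 0.35 and -0.61. The cause was not tested. Leaving out each library gave 0 to 0 members and 0 to 2 other vesicle genes at an adjusted p under 0.05 (0.148% to 0.35% of all genes), and 4 to 7 lower members at an unadjusted p (7.19% to 9.55% of all genes). Signs changed there for genes that were not called, with log2 fold changes from -1.89 to 4.49 for CPLX2, -0.15 to 0.76 for RIMS1, -1.02 to 0.70 for SNAP23, -0.15 to 0.0662 for SYNGR2, -0.0857 to 0.26 for SYT14 and -0.0384 to 0.0846 for VAMP2. They also changed for genes named after their values were seen, such as VAMP8 (-0.83 to 0.69), PPFIA3 (-0.08 to 0.28) and AP2S1 (-0.13 to 3.33). The non-overlap count was not recomputed under alternatives that leave CPM unchanged. With 2 libraries a group, the edgeR prior had 1.75 degrees of freedom and the common dispersion was 0.122. Counts of 0 allow up to 3 counts per library.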

Other observations

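OE replicate 1 stood above the other libraries for a few genes of the lists used here, named after their values were seen. SH3GL1 (endophilin A2), which bends membranes in endocytosis, had 125 and 152 counts in vector control, 3854 in OE replicate 1 and 287 in OE replicate 2, with a log2 fold change of 3.79 (SE 1.45, edgeR adjusted p = 0.265). VIM (vimentin), an intermediate filament of mesenchymal cells, had 348 and 349 CPM in vector control, 1252 CPM in OE replicate 1 and 375 CPM in OE replicate 2 (log2 fold change 1.22, SE 0.628, edgeR adjusted p = 0.367). SYT1 showed the same order, with 255 CPM in OE replicate 1 against 123 CPM in OE replicate 2. In these 3 genes OE replicate 2 was also above both controls. AP2S1, a subunit of the clathrin adaptor AP-2, had 198 and 176 counts in vector control, 2014 in OE replicate 1 and 211 in OE replicate 2, and there OE replicate 2, at 7.29 CPM, lay below both controls (8.49 and 7.48 CPM). Among adrenergic markers it was vector control replicate 1 that stood apart, with PHOX2A at 14.2 CPM against 53.7 CPM in vector control replicate 2 and 74.8 and 76.2 CPM in OE cells. That library was also low for GOSR1, at 7.68 CPM against 109 CPM in the other control and 112 and 120 CPM in OE cells. OE replicate 2 was low for AP2B1 and DNAJC5, at 22.8 and 3.28 CPM. In OE replicate 1 these 2 genes had 233 and 186 CPM, and OE replicate 1 was thus not the only library to stand apart.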
